A study of Mus musculus with 32 samples.

Results

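The 8 transcription factor genes described here, known from the identity, development and repair of the kidney tubule, were followed through cisplatin-induced acute kidney injury (AKI) in mice: Hnf4a, Pax2, Pax8, Sox9, Sox4, Ehf, Elf3 and Mecom. They were chosen by name and make up 8 of the 54532 genes in the count table, of which 1469 carry a transcription factor family. Ehf and Mecom were chosen with their Day 5 levels known, so their Day 5 values are given as a description without a test. Their Day 2 and Day 3 tests use the same Day 0 mice. RNA of kidneys from 32 C57BL/6 mice, 6 to 8 weeks old, was sequenced in 8 groups of 4, formed by sex and by day (Day 0, then Day 2, Day 3 or Day 5 from 1 dose of 20 mg/kg cisplatin). Cisplatin is a platinum drug that injures the proximal tubule. The study calls the Day 0 mice healthy, although the labels name cisplatin for the Day 0 females and no treatment for the Day 0 males. Each library came from 1 mouse.

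Hnf4a encodes a nuclear receptor that drives the genes of the mature proximal tubule, the segment that takes back most of the filtered solutes. Pax2 and Pax8 encode paired-box factors that are needed to form the nephron and stay on in parts of the adult tubule, and Sox9 and Sox4 encode HMG-box factors known from growing and regenerating epithelia, with Sox9 a well-known mark of surviving tubule cells after injury. Ehf and Elf3 encode epithelial factors of the ETS family that are found in distal nephron, collecting duct and other epithelia, and Mecom encodes a zinc-finger factor known from blood stem cells, endothelium and the distal nephron.

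The 8 genes lie apart in the genome, and only Hnf4a, Pax8 and Ehf share a chromosome. In GRCm38 coordinates, which are those of the count table, Hnf4a (ENSMUSG00000017950) covers chr2:163506808-163572910 on the plus strand and Pax2 (ENSMUSG00000004231) covers chr19:44756045-44837871 on the plus strand. Pax8 (ENSMUSG00000026976) lies at chr2:24420560-24475599 on the minus strand, and Sox9 (ENSMUSG00000000567) lies at chr11:112782224-112787760 on the plus strand. Sox4 (ENSMUSG00000076431, chr13:28948919-28953713), Ehf (ENSMUSG00000012350, chr2:103263433-103303278), Elf3 (ENSMUSG00000003051, chr1:135253575-135258568) and Mecom (ENSMUSG00000027684, chr3:29951296-30548008) lie on the minus strand. Exons of Pax8, Elf3 and Mecom share 367, 162 and 81 bases with genes on the opposite strand, and Sox4 shares 2616 bases with a gene that had 0 counts in every library. The sources used here do not say whether the counting used strand, so reads of Pax8, Elf3 and Mecom in those bases cannot be assigned to a strand.

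Promoter sequences (250 bases before the start to 50 after it, RefSeq, GRCm38.p6) were found for 6 of the 8 genes, in 10 entries, and Sox9 and Ehf had none in the table. Hnf4a has 2 starts, 40298 bases apart, and Mecom has 2 starts, 496555 bases apart. Pax2 has 3 starts. The counts sum the transcripts of all starts of a gene, so the values of these 3 genes below do not tell the starts apart. The 4 promoters of Hnf4a and Mecom are shown. Capitals mark matches to the motifs searched on both strands, which were TATAAA for the TATA box, CCAAT for the box named after it, TGANTCA for the AP-1 site, CCGGAAG for the ETS site and AACAAT for the SOX site. No matches overlapped in these sequences.
Hnf4a, first start, chr2:163506607-163506906, plus strand: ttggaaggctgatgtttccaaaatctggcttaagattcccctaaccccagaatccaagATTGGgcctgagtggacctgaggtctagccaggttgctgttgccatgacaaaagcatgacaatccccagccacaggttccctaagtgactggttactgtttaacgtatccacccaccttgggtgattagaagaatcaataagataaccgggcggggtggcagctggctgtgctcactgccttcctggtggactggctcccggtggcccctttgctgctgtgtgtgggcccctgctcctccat
Hnf4a, second start, chr2:163546905-163547204, plus strand: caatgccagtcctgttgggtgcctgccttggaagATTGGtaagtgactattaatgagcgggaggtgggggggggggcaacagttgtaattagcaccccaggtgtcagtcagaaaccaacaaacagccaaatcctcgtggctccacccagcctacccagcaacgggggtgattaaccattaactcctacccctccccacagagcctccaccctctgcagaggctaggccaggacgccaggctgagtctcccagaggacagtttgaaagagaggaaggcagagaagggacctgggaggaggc
Mecom, first start, chr3:30509710-30510009, minus strand: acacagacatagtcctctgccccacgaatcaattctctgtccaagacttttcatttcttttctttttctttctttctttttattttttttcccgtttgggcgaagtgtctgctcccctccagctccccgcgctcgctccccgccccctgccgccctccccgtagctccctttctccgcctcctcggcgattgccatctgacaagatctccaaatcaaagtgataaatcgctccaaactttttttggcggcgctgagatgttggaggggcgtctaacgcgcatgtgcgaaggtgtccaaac
Mecom, second start, chr3:30013155-30013454, minus strand: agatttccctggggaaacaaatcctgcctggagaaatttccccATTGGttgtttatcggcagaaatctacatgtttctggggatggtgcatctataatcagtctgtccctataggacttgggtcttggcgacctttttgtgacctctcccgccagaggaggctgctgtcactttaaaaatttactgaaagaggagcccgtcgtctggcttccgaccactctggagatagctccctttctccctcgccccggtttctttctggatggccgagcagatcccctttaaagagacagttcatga
Both Hnf4a starts hold 1 CCAAT box, which occurred in 37.4% of 32817 mouse promoters of this length. The second Mecom start holds 1 CCAAT box and the first none of the motifs. Over all 10 entries the AP-1, ETS and SOX letters and the TATA box were not found. A match describes letters in a window and is not a bound site.

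The libraries held 16502107 to 35961325 counts, and 5 of them stood apart by the share of counts from the mitochondrial genome, which was 42.5% to 79.8% against 4.49% to 31.6% in the others. These were the 4 male Day 5 mice and female Day 5 mouse 2, and in the 4 libraries above 70% only 3780528 to 5340637 nuclear counts were left. The library labelled male Day 5 mouse 1 held 4153 Xist counts, against 0 to 260 in the other males, and 387 Y-linked counts, which came to 34.1 CPM of its nuclear counts against 71.4 to 171 CPM in the other males. The female Day 0 libraries held 5 to 221 counts of Y-linked genes. Female Day 0 mouse 2 had a summed level of 12848 CPM for 10 hepatocyte markers, against 64.5 to 486 CPM in the other Day 0 females. Female Day 0 mouse 4 had the highest mitochondrial share of the Day 0 females, 19.7%, and the highest levels of Hnf4a, Pax2, Pax8, Sox4 and Ehf among them. Markers of the adrenal cortex, which lies on the kidney, summed to 110 to 2354 CPM in the Day 3 females and 621 to 1601 CPM in the Day 5 females, against 84.4 to 505 CPM at Day 0. In males they summed to 625 CPM in Day 2 mouse 2, against 122 to 219 CPM at Day 0, and to 118 to 249 CPM at Day 5, where 5 of 7 tested rose and 1 fell (2 rose without Day 0 mouse 2 or Day 5 mouse 2). Male Day 0 mouse 4 had the highest mitochondrial share of the Day 0 mice, 24.0%, with 242 Xist counts, an adipocyte marker sum of 3096 CPM against 579 to 862 CPM in the other Day 0 males, and a fibroblast and pericyte marker sum of 997 CPM against 257 to 305 CPM. Kidney markers were present throughout, with 10 thick limb and distal tubule markers at 1249 to 6002 CPM in sum. Levels are CPM, the counts scaled to a common effective library size (TMM), a change is a log2 fold change with its standard error (SE), and a gene "passed" when its adjusted p in edgeR's quasi-likelihood test was under 0.05 over all genes tested. Counts of list genes that passed stand beside the share of all genes that passed in either direction. This share was 3.16%, 24.5% and 19.2% in males at Day 2, Day 3 and Day 5, and 1.93%, 5.54% and 0.258% in females. 

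At Day 0 the levels of the 8 genes lay far apart. Compared per gene length in the deposited FPKM, Hnf4a was highest, with 119 ± 11.3 in males and 92.6 ± 22.9 in females (mean ± SD, n = 4). Elf3, Pax8 and Pax2 followed at 9.72 ± 2.44, 7.89 ± 2.36 and 5.45 ± 0.740 FPKM in males, with ranges that overlapped between neighbours. Ehf had 2.38 ± 0.236, Mecom 1.501 ± 0.148 and Sox4 1.04 ± 0.595 FPKM, and Mecom and Sox4 overlapped. Sox9 was lowest, with 0.104 ± 0.0542 FPKM and 3 to 12 counts per male library. The order was the same in females, where Pax2 and Ehf also overlapped.

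**Figure D1:**
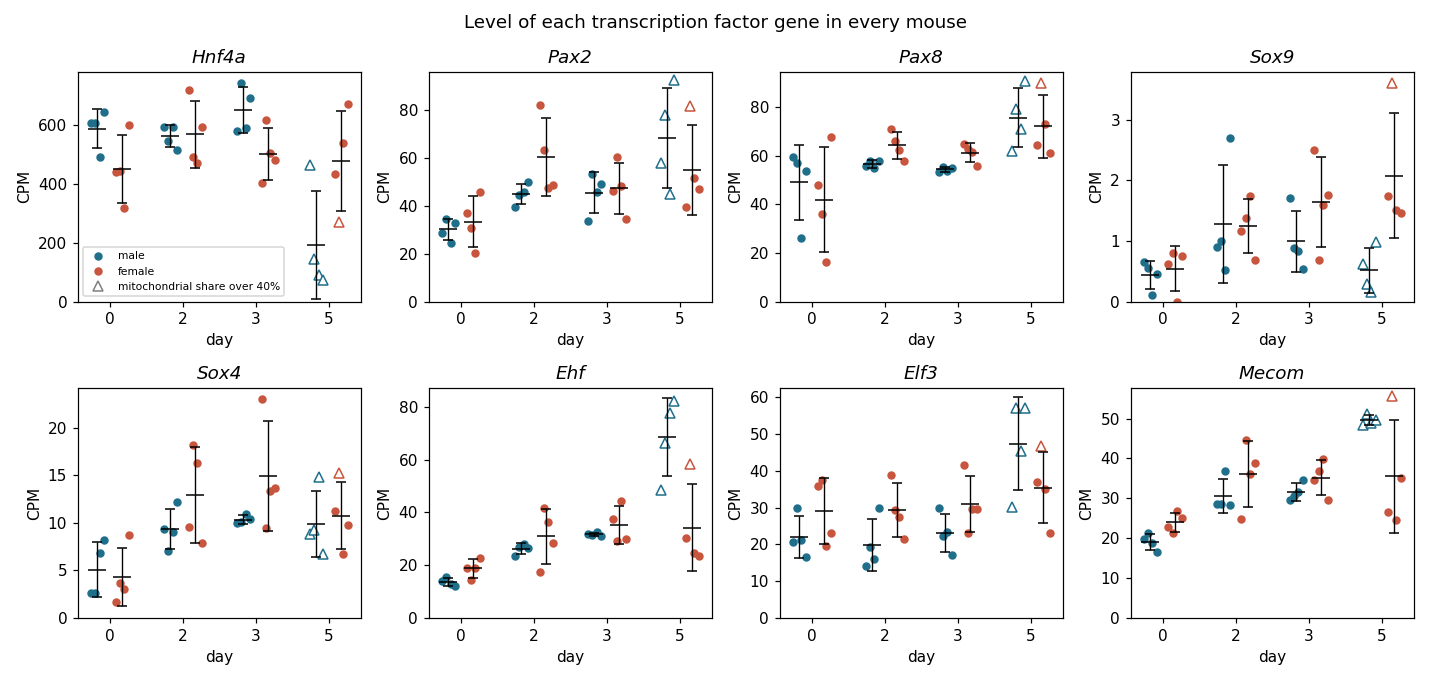
Level of each of the 8 genes in every mouse in CPM (vertical axis, linear, from 0) by day (horizontal axis), males in blue and females in red, with the group mean and SD in black. Open triangles are the 5 libraries with a mitochondrial share over 40%. Hnf4a lies at 73.8 to 143 CPM in 3 of the male Day 5 mice, and Ehf and Mecom lie above all Day 0 males at Day 2 and Day 3.

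The proximal tubule factor Hnf4a did not pass at Day 2 or Day 3, and its level differed between mice at Day 5. In males it had 607, 606, 492 and 644 CPM at Day 0, 516 to 594 CPM at Day 2 and 579 to 743 CPM at Day 3. The change was -0.05 (SE 0.157, 95% interval -0.41 to 0.30, adjusted p = 0.843) at Day 2 and 0.15 (SE 0.150, interval -0.19 to 0.49, adjusted p = 0.486) at Day 3. The Day 2 and Day 3 males overlapped with the Day 0 males, and neither interval reached below -0.41. At Day 5 mouse 1 had 462 CPM and mice 2, 3 and 4 had 143, 91.2 and 73.8 CPM. All 4 values lay below the Day 0 males, 3 of them far below and 1 just below, and the change of -1.56 did not pass (SE 0.540, adjusted p = 0.0698). Without mouse 1, whose Xist and scaled Y-linked counts set it apart from the other males, the change was -2.44 and passed (adjusted p = 0.000915). It also passed with all 4 mice in the DESeq2 Wald test (adjusted p = 0.0128) and in a single fit of all 8 groups (adjusted p = 0.00126).

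In females Hnf4a had 440, 445, 317 and 598 CPM at Day 0 and 431, 271, 538 and 672 CPM at Day 5. These groups overlapped, with a change of 0.08 (SE 0.324, adjusted p = 0.917), and the lowest value was that of mouse 2, the female library with a mitochondrial share of 77.9%. Over the 32 libraries, the 4 with a share above 70% had 73.8 to 271 CPM of Hnf4a and the other 28 had 317 to 743 CPM. The difference between the sexes in the change to Day 5 was -1.66 (SE 0.652, unadjusted p = 0.021 and adjusted p = 0.24 in edgeR) and did not pass. Without male Day 5 mouse 1 it was -2.55 and passed (adjusted p = 0.00342), as did the male against female difference at Day 5 (-2.10, adjusted p = 0.00187). In the bulk RNA of a kidney, fewer cells of a type and less RNA per cell cannot be told apart. In order of mean level, the 7 groups other than the male Day 5 mice ran from 450 to 650 CPM with overlapping neighbours.

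The 20 proximal tubule genes, mostly transporters and enzymes of this segment, were counted beside Hnf4a. Their summed level was 12956, 3292, 1781 and 1803 CPM in male Day 5 mice 1 to 4 against 21855 to 26409 CPM in the Day 0 males, and 8 of 20 fell. In the Day 5 females the sum was 7784 to 20937 CPM against 15619 to 27920 CPM, and none of the 20 passed. In the males Acsm2, an acyl-CoA synthetase gene, fell by 3.86 on the log2 scale (SE 0.74, adjusted p = 0.0126) and Slc22a6, the organic anion transporter OAT1, fell by 3.12 (SE 0.62, adjusted p = 0.0134). The 11 other proximal tubule factors tested had 5 falls and no rise, among them Tfec (-2.01, SE 0.41) and the bile acid receptor gene Nr1h4 (-1.84, SE 0.46). Without mouse 1, 19 of the proximal tubule genes and 8 of the factors fell, and without mouse 2 or 4 only 2 of the genes did. At Day 3 in males 3 of the 20 genes rose and 3 fell, where 24.5% of all genes passed in either direction. In females 2 fell, both lost without female Day 0 mouse 2. The part of the mitochondrial share and of the lower nuclear depth in these values was not tested.

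**Figure D2:**
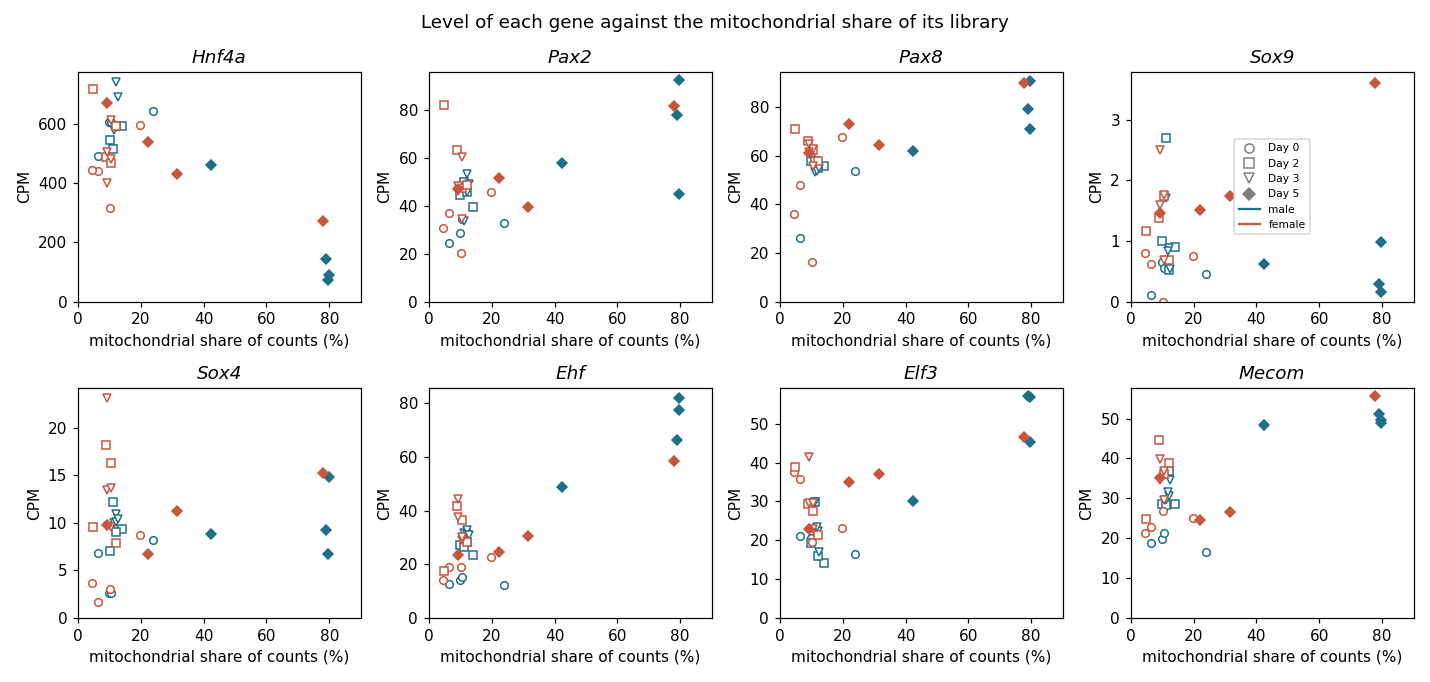
Level of each gene in CPM (vertical axis) against the share of a library's counts on the mitochondrial genome in percent (horizontal axis), 1 symbol per mouse, filled at Day 5. The 4 libraries above 70% have the lowest Hnf4a levels and the highest Ehf, Elf3 and Mecom levels of the 32, while Sox4 in them lies within the range of the others.

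Ehf, the epithelial ETS factor, rose at Day 2 and Day 3 in males and at Day 3 in females. In males it had 14.1, 15.4, 12.8 and 12.1 CPM at Day 0. At Day 2 the 4 males had 23.3, 27.0, 28.2 and 26.5 CPM, and at Day 3 they had 31.7, 31.3, 32.6 and 31.0 CPM. Every Day 2 male lay above every Day 0 male, and every Day 3 male above every Day 2 male. The change was 0.96 at Day 2 (SE 0.139, interval 0.65 to 1.28, adjusted p = 0.0241), or 1.95-fold. At Day 3 it was 1.22 (SE 0.109, interval 0.97 to 1.47, adjusted p = 0.00162), or 2.33-fold. The Day 3 call held without each mouse in turn (1.17 to 1.28). The Day 2 call was lost without Day 0 mouse 1 or 2 or Day 2 mouse 2, 3 or 4, with adjusted p of 0.0893, 0.0718, 0.102, 0.108 and 0.0632 in that order.

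In females Ehf had 19.0, 14.2, 18.8 and 22.9 CPM at Day 0 and 37.5, 29.0, 44.5 and 30.1 CPM at Day 3, so that the groups did not overlap. The change of 0.90 passed (SE 0.205, interval 0.44 to 1.36, adjusted p = 0.0479). It was the only member that passed in females, and it passed without just 1 of the 8 mice, Day 0 mouse 4 (adjusted p = 0.00538). Without any one of the other 7 the adjusted p was 0.0533 to 0.168, and without Day 0 mouse 2, the library with the high hepatocyte marker sum, the change was 0.78 (adjusted p = 0.137). With DESeq2's size factors the adjusted p was 0.0515. At Day 2 the females had 17.5, 41.6, 36.5 and 28.2 CPM, with mouse 1 among the Day 0 values, and the change of 0.72 did not pass (SE 0.283, adjusted p = 0.145).

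At Day 5 the males had 48.6, 66.3, 77.5 and 82.1 CPM of Ehf, all above every male of the earlier days, at 5.28 times Day 0. The females had 30.4, 58.3, 24.4 and 23.6 CPM, each above the highest Day 0 female, with mouse 2 apart from the others. Without mouse 2 the female log2 difference from Day 0 fell from 0.88 to 0.47. These Day 5 values were known when the gene was chosen and are a description. The 3 male libraries with a mitochondrial share above 70% were the 3 highest of the 32, followed by the female library of the same kind.

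Mecom also rose at Day 2 and Day 3 in males. In males it had 19.8, 21.2, 18.7 and 16.6 CPM at Day 0, 28.5, 28.5, 37.0 and 28.3 CPM at Day 2 and 29.6, 30.5, 31.7 and 34.5 CPM at Day 3. All 8 males of Day 2 and Day 3 lay above the Day 0 males, and these 2 days overlapped with each other. The change was 0.69 at Day 2 (SE 0.148, interval 0.36 to 1.03, adjusted p = 0.0457) and 0.73 at Day 3 (SE 0.112, interval 0.47 to 0.98, adjusted p = 0.00733). The Day 3 call held without each mouse in turn, with an adjusted p of up to 0.0397. The Day 2 call was lost without Day 0 mouse 1 or 2 (adjusted p = 0.0917 and 0.104) or any 1 Day 2 mouse (adjusted p = 0.102, 0.131, 0.149 and 0.0771 for mice 1 to 4), and without the filter on low counts (adjusted p = 0.0611).

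In females Mecom had 22.9, 21.4, 26.8 and 25.1 CPM at Day 0 and 34.5, 36.8, 39.9 and 29.6 CPM at Day 3. The groups did not overlap, and the change of 0.53 did not pass (SE 0.151, interval 0.19 to 0.88, adjusted p = 0.0603). It passed without Day 0 mouse 4 (0.56, adjusted p = 0.0168). The Day 5 males, with 48.4, 51.2, 49.0 and 49.7 CPM, had the smallest SD of the 8 groups (1.21 CPM) and lay at 2.71 times Day 0, and the Day 5 females had 26.6, 55.7, 24.5 and 35.2 CPM. As for Ehf, these Day 5 values are a description. The one female above the males, mouse 2, had the mitochondrial share of 77.9%.

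Markers of cell types that hold Ehf or Mecom were examined in the same libraries. Ehf and Mecom rose at Day 3 in males while the summed level of 12 collecting duct markers was 781 to 866 CPM against 661 to 1265 CPM at Day 0, and that of 10 urothelium markers was 32.9 to 40.1 CPM against 39.2 to 76.7 CPM. A separate list of 10 collecting duct transcription factors summed to 317 to 398 CPM at Day 3 in males, above the 183 to 286 CPM of Day 0, and to 333 to 453 CPM at Day 2. Gene by gene, only Grhl2 rose and only Hmx2 fell among these factors at Day 3 in males, and none passed at Day 2. In females these factors summed to 387 to 460 CPM at Day 3 and 239 to 346 CPM at Day 0, also without overlap. The female collecting duct marker sum was 1032 to 1223 CPM at Day 3 against 885 to 1934 CPM, and 2 of these markers and 3 of the urothelium markers fell there with no rise, calls that were all lost without Day 0 mouse 2. Of 10 thick limb and distal tubule markers, 2 fell at Day 2 and 4 at Day 3 in males with no rise, led at Day 3 by Pvalb (-3.86, SE 0.65) and Calb1 (-2.23, SE 0.19), and the Day 3 count was 2 without Day 3 mouse 1, 2 or 3. In females 1 of them fell on each of these days. The part of collecting duct and distal tubule RNA in the Ehf and Mecom values was not tested. Of the markers tested in males at Day 3, 1 collecting duct gene rose and 1 fell, and 3 urothelium genes fell. In males the endothelium markers were higher, with 694 to 756 CPM in sum at Day 3 and 677 to 967 CPM at Day 2 against 459 to 581 CPM at Day 0. Of these, Tek and Flt1, receptors of angiopoietins and of VEGF, rose (1.24, SE 0.16, and 1.27, SE 0.18, at Day 3), and the other 8 did not pass. In females at Day 3 the endothelium sum was 483 to 641 CPM against 460 to 600 CPM at Day 0. The part of endothelial RNA in the male Mecom values was not tested.

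**Figure D3:**
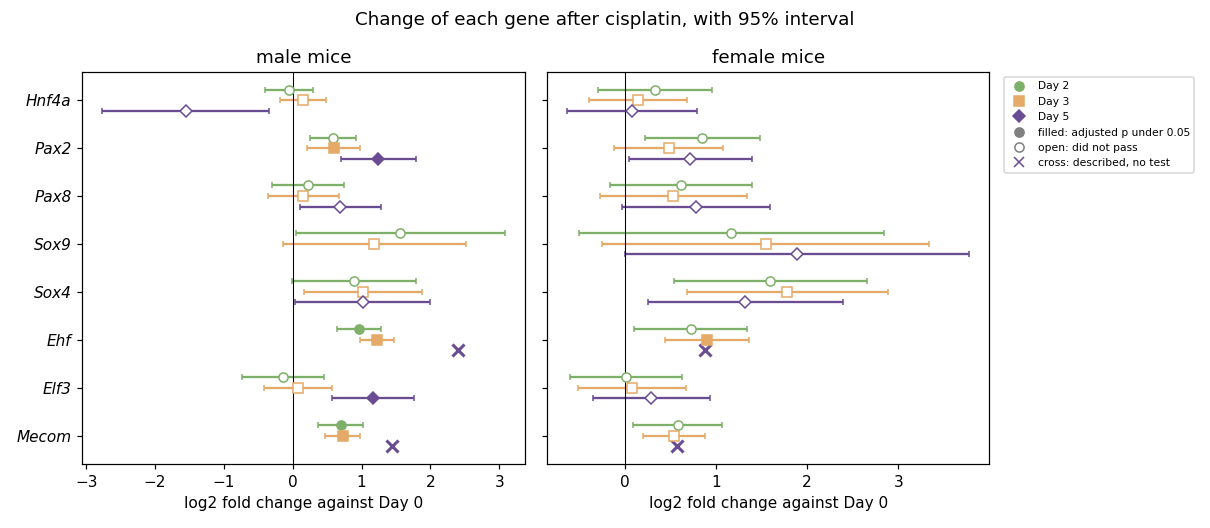
Log2 fold change against Day 0 (horizontal axis) of each gene with its 95% interval, for males (left) and females (right) at Day 2, Day 3 and Day 5. Filled symbols passed, open symbols did not, and crosses mark the Day 5 values of Ehf and Mecom, which were not tested. Sox9 did not pass the filter on low counts in males at Day 5 and has no symbol there.

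Elf3, the other ETS member, passed at Day 5 in males and on no other day. In males it had 20.6, 29.9, 21.1 and 16.6 CPM at Day 0, 14.2 to 29.9 CPM at Day 2 and 16.99 to 29.7 CPM at Day 3. These groups overlapped, with changes of -0.14 (SE 0.266, interval -0.74 to 0.46) and 0.07 (SE 0.218, interval -0.42 to 0.56). At Day 5 the males had 30.2, 57.0, 45.3 and 57.0 CPM, of which mouse 1 lay just above the highest Day 0 male and the other 3 well above it. The Day 5 change of 1.16 passed (SE 0.264, interval 0.57 to 1.76, adjusted p = 0.0185), and it was 1.35 without mouse 1 (adjusted p = 0.00328). It was lost without Day 0 mouse 1 (adjusted p = 0.06) and without Day 5 mouse 2, 3 or 4 (adjusted p = 0.0616, 0.0541 and 0.0578). The 4 libraries with a mitochondrial share above 70% had 45.3 to 57.0 CPM of Elf3, and the highest of the other 28 had 41.5 CPM. The part of this share in the Elf3 values was not tested.

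In females Elf3 had 19.6 to 37.5 CPM at Day 0 and 22.99 to 46.7 CPM at Day 5, and none of the 3 days passed. The ratio of Ehf to Elf3 in FPKM was 0.205 to 0.290 in the Day 0 males and 0.351 to 0.703 in the Day 2 males, without overlap, and 0.424 to 0.724 at Day 3. In females the ratio was 0.150 to 0.392 at Day 0 and 0.359 to 0.596 at Day 3, and these ranges overlapped. The female Day 2 ratio was 0.179 to 0.563, which also overlapped with Day 0. At Day 5 the ratio was 0.462 to 0.681 in males and 0.277 to 0.497 in females, where it overlapped with Day 0. The Day 5 ratios are a description, since the Ehf levels of that day were known when the gene was chosen.

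Of other epithelia, urothelium and collecting duct markers were higher in sum in the Day 5 males, and thick limb and distal tubule markers were not. The latter summed to 3902, 2343, 1249 and 3602 CPM in mice 1 to 4 against 1733 to 4172 CPM at Day 0. The urothelium markers summed to 85.0, 283, 382 and 243 CPM in mice 1 to 4 against 39.2 to 76.7 CPM at Day 0, and 4 of 9 tested rose, led by Upk3b (2.67, SE 0.53) and Psca (2.49, SE 0.53). Of the 10 markers, 1 had at most 3 counts in each of these mice. The collecting duct markers summed to 1330 to 2077 CPM against 661 to 1265 CPM, and 4 of 11 tested rose, led by Aqp4, a water channel of the collecting duct (1.96, SE 0.32). In the Day 5 females the urothelium sum was 42.0 to 73.9 CPM against 62.8 to 139 CPM at Day 0. In the Day 5 males the markers of adipocytes summed to 1090 to 5516 CPM against 579 to 3096 CPM, those of fibroblasts and pericytes to 429 to 1843 CPM against 257 to 997 CPM, and those of leukocytes to 57.1 to 256 CPM against 62.5 to 83.7 CPM. The endothelium markers summed to 498, 798, 792 and 1311 CPM in mice 1 to 4 against 459 to 581 CPM, and 3 of 10 rose, led by Cdh5 (1.26, SE 0.33) and Pecam1 (1.10, SE 0.32), with 5 rising without mouse 1 and 0 without Day 0 mouse 1 or 2 or Day 5 mouse 2, 3 or 4. The part of these cell types in the Day 5 values was not tested.

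**Figure D4:**
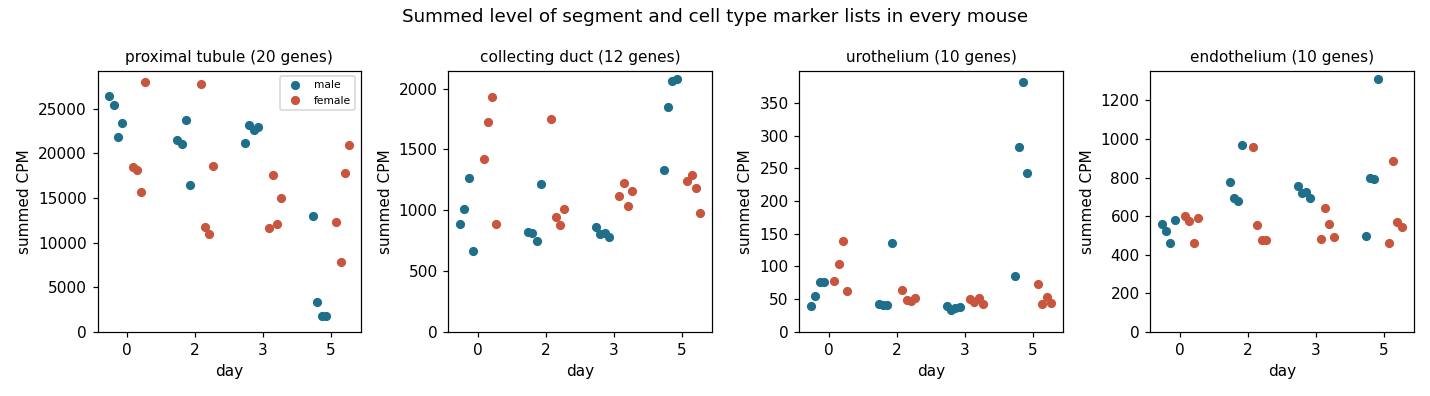
Summed CPM (vertical axes, from 0) of marker lists of the proximal tubule, collecting duct, urothelium and endothelium in every mouse by day (horizontal axes), males in blue and females in red. The Day 3 males lie within or below the Day 0 range for collecting duct and urothelium, and male Day 5 mice 2 to 4 have urothelium sums of 243 to 382 CPM.

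Pax2 rose in males at Day 3 and Day 5, and its relative Pax8 did not pass on any day. Pax2 had 28.9, 34.6, 24.5 and 32.8 CPM in the Day 0 males, 39.7, 44.6, 45.8 and 49.8 CPM at Day 2 and 33.6, 53.3, 45.9 and 49.2 CPM at Day 3. The Day 2 males lay above every Day 0 male, whereas at Day 3 mouse 1 lay among the Day 0 values. The change was 0.59 on both days, with an SE of 0.148 and adjusted p = 0.059 at Day 2, which did not pass, and an SE of 0.169 and adjusted p = 0.0372 at Day 3, which did. The Day 2 change passed without Day 0 mouse 3 or 4 (adjusted p = 0.0317 and 0.0405). The Day 3 call was lost without Day 0 mouse 1 or 2 (adjusted p = 0.0807 and 0.0546), without Day 3 mouse 2, 3 or 4 (adjusted p = 0.104, 0.0976 and 0.0964), without the filter on low counts (adjusted p = 0.0506) and in a single fit of all 8 groups (adjusted p = 0.0858).

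At Day 5 the males had 57.8, 78.1, 45.1 and 92.4 CPM of Pax2, all above the Day 0 males. The change of 1.24 passed (SE 0.242, interval 0.70 to 1.79, adjusted p = 0.013) and held without each mouse in turn (1.06 to 1.39). The Day 5 males all had a mitochondrial share of 42.5% to 79.8%, which leaving out 1 mouse does not remove. Its part in the Pax2 values was not tested. Females had 37.0, 30.9, 20.3 and 45.7 CPM at Day 0 and 82.0, 63.5, 47.3 and 48.8 CPM at Day 2. The groups did not overlap, and the change of 0.85 did not pass (SE 0.288, adjusted p = 0.105). At Day 3 and Day 5 the female changes were 0.48 (SE 0.265) and 0.72 (SE 0.307), with overlapping groups, and the Day 5 change was 0.45 without mouse 2, which had 81.9 CPM against 39.5 to 51.5 CPM in the others.

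Pax8 was level between mice at Day 2 and Day 3, with 54.7 to 58.0 and 53.4 to 55.4 CPM in males, and more spread at Day 0, with 59.5, 57.2, 26.2 and 53.6 CPM. Male mouse 3 and female mouse 3 (16.1 CPM) were the lowest at Day 0, and the female Day 0 range reached 67.5 CPM. The male changes were 0.22 (SE 0.232), 0.15 (SE 0.227) and 0.69 (SE 0.263, adjusted p = 0.0906) at Day 2, Day 3 and Day 5. The Day 5 males, with 61.7, 79.2, 71.1 and 90.7 CPM, lay above all Day 0 males. In females the changes were 0.61 (SE 0.355), 0.53 (SE 0.358) and 0.78 (SE 0.367), none of which passed. Without 1 mouse at a time they ran from 0.36 to 0.94, 0.27 to 0.86 and 0.52 to 1.12. Of the 8 such fits at Day 2, 1 passed (adjusted p = 0.0492 in edgeR). Of the 7 other Pax genes, at most 2 had enough counts to be tested in a comparison with Day 0 and none passed.

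Sox4 and Sox9 were higher than Day 0 on average in most groups, and neither passed in any comparison. Sox4 had 2.66, 2.65, 6.86 and 8.17 CPM in the Day 0 males and 10.01, 10.1, 10.9 and 10.4 CPM at Day 3. The Day 3 males lay close together and above all Day 0 males, which were split into 2 low and 2 higher values. The change was 1.02 (SE 0.377, interval 0.16 to 1.87, adjusted p = 0.0771), and it passed without Day 0 mouse 3 or 4 (adjusted p = 0.0389 and 0.0262). In females Sox4 had 1.72, 3.66, 3.04 and 8.71 CPM at Day 0, 9.54, 18.2, 16.3 and 7.87 CPM at Day 2 and 23.1, 9.51, 13.4 and 13.7 CPM at Day 3. The changes of 1.59 (SE 0.480, adjusted p = 0.0809) and 1.78 (SE 0.490, adjusted p = 0.0573) were the largest of the well-counted members on those days and did not pass. Both passed without Day 0 mouse 4, the highest control (2.21, adjusted p = 0.00424, and 2.40, adjusted p = 0.00271).

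Sox9 had 12, 11, 3 and 8 counts in the Day 0 males and 19, 29, 0 and 28 counts in the Day 0 females, where a count of 0 allows up to 3 counts. The highest count of any library was 101, in a Day 3 female, at 2.50 CPM. Male changes were 1.56 (SE 0.675) at Day 2 and 1.19 (SE 0.585) at Day 3, and female changes were 1.17 (SE 0.760), 1.54 (SE 0.794) and 1.89 (SE 0.855), with adjusted p between 0.161 and 0.351. The male Day 2 change was 0.89 without mouse 4, which had 73 counts against 13 to 31 in the other Day 2 males. Its interval with all mice ran from 0.04 to 3.08, wide beside those of the other members. In the Day 5 males it had 11, 2, 1 and 7 counts and did not reach the count filter. The Day 5 females had 1.73, 3.61, 1.51 and 1.46 CPM, all above the Day 0 females at 0 to 0.797 CPM.

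By comparison, 2 of the 8 genes passed at Day 2 in males, both higher, where 3.16% of the 16051 genes tested passed in either direction. At Day 3 in males 3 of 8 passed, all higher, where 24.5% of all genes passed and 11.4% passed as higher. At Day 5 in males 2 of the 5 genes tested passed, both higher, beside 19.2% of all genes. In females 0 of 8 passed at Day 2 (1.93% of all genes), 1 of 8 at Day 3 (5.54%) and 0 of 6 at Day 5 (0.258%). The male Day 2 calls were Ehf and Mecom, those of male Day 3 were Ehf, Mecom and Pax2, and the female call was Ehf. Ehf and Mecom were chosen with their Day 5 levels known, and the same Day 0 mice enter these tests. The counts are therefore not those of a list chosen apart from these data. No member passed with an absolute log2 fold change over 1.5 as well, the reading used here of the study's log fold change threshold of 1.5. Of all genes 0.716%, 3.72% and 7.53% did in males and 1.41%, 2.48% and 0.228% in females at Day 2, Day 3 and Day 5. In females 4 genes at Day 2 and 3 at Day 5 had an unadjusted p under 0.05 in edgeR, beside 25.3% and 15.7% of all genes, and the DESeq2 Wald test called 1 and 0. The members' median change was 0.64, 0.66 and 1.02 in males and 0.67, 0.53 and 0.75 in females at Day 2, Day 3 and Day 5, while the median of all genes lay between 0.02 and 0.04. Without female Day 0 mouse 4 the female counts were 3, 3 and 1, and without female Day 0 mouse 2 they were 0 on each day. Without 1 male at a time the male counts were 0 to 3 at Day 2, 2 to 4 at Day 3 and 1 to 3 at Day 5, with 3 at Day 5 without mouse 1. The groups did not overlap, with the treated mice higher, for 3 of the 8 genes at Day 2 and for 3 at Day 3 in males, beside 12.3% and 20.9% of all genes, and for 1 and 3 in females, beside 8.66% and 10.1%.

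No member passed between male and female mice of the same day, where 0.449% of all genes passed at Day 0, 1.47% at Day 2, 21.3% at Day 3 and 0.276% at Day 5. The unadjusted p in edgeR was under 0.05 for 1, 2, 3 and 2 members in that order, beside 8.04%, 15.0%, 36.7% and 20.3% of all genes. At Day 3 Pax8 was 53.4 to 55.4 CPM in males and 55.6 to 64.8 CPM in females, without overlap, at a male against female difference of -0.20 (SE 0.065, adjusted p = 0.0544). That difference passed without female Day 3 mouse 4 (-0.25, adjusted p = 0.0197), and without female Day 3 mouse 2 Hnf4a (0.47), Sox9 (-1.004) and Sox4 (-0.71) passed at Day 3, with adjusted p of 0.00994, 0.0387 and 0.0166. At Day 5 Sox9 had 1 to 11 counts per male library and 30 to 49 per female library. It came through the count filter by the female counts, and the male against female difference of -1.89 (SE 0.630, adjusted p = 0.162) did not pass. At Day 0 the male against female difference was -0.48 for Ehf (SE 0.205, adjusted p = 0.598) and -0.35 for Mecom (SE 0.174, adjusted p = 0.699).

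The change from Day 0 was also compared between the sexes in 1 model. No member passed at Day 2, Day 3 or Day 5, where 0%, 0.0114% and 0.243% of all genes did, and 0, 0 and 2 members had an unadjusted p under 0.05 in edgeR, beside 4.23%, 7.11% and 15.2% of all genes. For Ehf the male minus female difference in the change was 0.21 (SE 0.319, interval -0.46 to 0.89) at Day 2 and 0.29 (SE 0.232, interval -0.20 to 0.79) at Day 3. For Mecom it was 0.08 (interval -0.46 to 0.62) and 0.17 (interval -0.22 to 0.55). Passing in males and not in females at Day 2 therefore does not show that the sexes differ in these genes. For Elf3 the difference at Day 5 was 0.86 (SE 0.395, unadjusted p = 0.0443 and adjusted p = 0.315 in edgeR).

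The other transcription factors of the tubule gave the setting of these changes. Of 20 injury response factors, 5 rose in males at Day 2 and 10 at Day 3, and 12 of 19 tested rose at Day 5, with no fall. The immediate-early gene Fos rose by 2.50 (SE 0.45), 3.05 (SE 0.45) and 3.36 (SE 0.47) on the 3 days and Egr1 by 2.34 (SE 0.49) and 2.91 (SE 0.51) on the first 2. The stress factor Nupr1 rose by 3.51 (SE 0.58) at Day 5 in males. It fell by 1.07 (SE 0.19) at Day 2 and by 0.67 (SE 0.13) at Day 3 in females. These values come from different days and do not compare the sexes. In females 1 injury factor rose at Day 3, Fosl1 (3.71, SE 0.92), and none at Day 2 or Day 5. The list median was 0.70, 0.77 and 1.72 in males and 0.59, 0.61 and 0.71 in females at Day 2, Day 3 and Day 5. The male count at Day 2 was 0 without Day 0 mouse 1 or 2 or Day 2 mouse 2, 3 or 4, the lowest counts without 1 mouse were 6 at Day 3 and 7 at Day 5, and without female Day 0 mouse 4 the female counts of rises were 9, 8 and 9. Without female Day 0 mouse 2 no female call of this list was made, so that the falls of Nupr1 and the rise of Fosl1 were lost.

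Segment factors followed more than 1 direction. Of 10 collecting duct factors, none passed at Day 2 in males, Grhl2 rose (1.08, SE 0.30) and Hmx2 fell (-0.93, SE 0.18) at Day 3, and 5 rose at Day 5, led by Elf5 (2.34, SE 0.37) and Grhl2 (1.91, SE 0.34). Without male Day 5 mouse 1, 4 rose. Of 11 proximal tubule factors tested at Day 2 in males, 1 passed, Ppara, a regulator of fatty acid oxidation, which rose (1.78, SE 0.33) and was lost without Day 0 mouse 1 or 2 or any 1 Day 2 male. Day 3 results of that list in males are not reported here. Of 12 loop and distal nephron factors, Emx1 fell at Day 2 (-0.95, SE 0.17) and Day 3 (-1.30, SE 0.15) in males and at Day 3 in females (-1.09, SE 0.24). In males Esrrb and Sim1 of this list rose at Day 3, none of them called without any 1 Day 3 male. At Day 5 in males 4 rose, led by Sim1 (1.26, SE 0.27) and Sim2 (1.17, SE 0.29), and Irx3 fell (-0.74, SE 0.21), and no rise was called without Day 0 mouse 1 or Day 5 mouse 2. In females no other gene of these 3 lists passed at Day 3, and none passed at Day 2 or Day 5. The Day 3 rise of Grhl2 was lost without Day 0 mouse 1 or any 1 Day 3 male, the 5 falls of proximal tubule factors at Day 5 became 1 without Day 5 mouse 2 or 3, and the female fall of Emx1 was lost without Day 0 mouse 1, 2 or 3 or Day 3 mouse 1, 3 or 4.

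Other genes of the ETS and Sox families were counted as well. Of 17 other Ets genes tested, 5 rose in males at Day 3, among them the endothelial gene Erg (1.01, SE 0.26) and Ets1 (0.78, SE 0.17), and 1 in females, Etv6 (0.82, SE 0.19). At Day 5 in males 4 rose, led by Elf4 (1.61, SE 0.44), and Etv1 fell (-2.35, SE 0.47). Of the other Sox genes, Sox17, of endothelium, and Sox5 rose at Day 5 in males (1.93, SE 0.43, and 1.20, SE 0.37) and none passed on the earlier days or in females. None of the 5 Ets rises at Day 3 was called without any 1 Day 3 male, and at Day 5 the count was 7 without mouse 1 and 0 without mouse 2, 3 or 4. The female rise of Etv6 was lost without Day 0 mouse 1, 2 or 3 or Day 3 mouse 1, 3 or 4, and without Day 0 mouse 4 the female count was 10.

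Genes of tubule injury and repair, markers of damaged tubule cells, were counted in the same fits. Itgb6, an integrin gene, fell in males at Day 2, Day 3 and Day 5 (-1.41, SE 0.22, -1.25, SE 0.24, and -2.11, SE 0.28) and was the one gene of the list to fall (1 other also fell at Day 5 without Day 5 mouse 1, and the Day 3 fall was lost without Day 3 mouse 3 and the Day 2 fall without Day 0 mouse 1 or 2 or any 1 Day 2 male). At Day 3 in males 3 of 20 rose, where 11.4% of all genes passed as higher. Lcn2, the NGAL gene (3.53, SE 0.73), and the cell cycle inhibitor Cdkn1a (3.09, SE 0.35) led them. At Day 5 in males 8 rose, again led by Lcn2 (4.19, SE 0.95) and Cdkn1a (3.19, SE 0.54). In females Cdkn1a rose by 4.32 (SE 0.49) at Day 2 and 3.85 (SE 0.39) at Day 5, and 5 of the 20 rose at Day 3, led by Krt20 (6.18, SE 1.06) and Havcr1, the KIM-1 gene (5.86, SE 1.20). No female call of this list was made at Day 3 without Day 0 mouse 1, 2 or 3 or Day 3 mouse 1, 3 or 4, and the male count at Day 5 was 4 without Day 0 mouse 1 or 2.

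The genes most like each member were taken by the Pearson r of log2 CPM over the 32 libraries, among 15032 protein-coding genes. The libraries share their groups and the high mitochondrial shares at Day 5, so r is a description. They include the Day 5 libraries, whose Ehf and Mecom levels were known when both genes were chosen, so the likeness of these 2 genes is in part fixed by that choice. Mecom was the second most like gene to Ehf (r = 0.93) and Ehf the first for Mecom, with Ctnnal1 beside both (r = 0.94 and 0.90). Hnf4a was most like C2cd2l, the tight junction gene Cldn2 of the proximal tubule and Kmo (r = 0.97 for each). Elf3 was most like Tinagl1, the keratin gene Krt7 and Crip2 (r = 0.87 for each). Pax8 was most like Tmem200b, Cap1 and Mxd1 (r = 0.95, 0.94 and 0.94), Sox4 was most like Apaf1, Vwa5a and Birc3 (r = 0.87, 0.87 and 0.84), and Pax2 was most like Tbc1d2, Krt80 and Shroom3 (r = 0.87, 0.87 and 0.86). Sox9 was most like Klhl26, Gcnt4 and Ampd2 (r = 0.86, 0.86 and 0.85) at its low counts. Between members, Pax2 and Pax8 had r = 0.80, Ehf and Elf3 0.55, and Hnf4a had -0.68 with both Ehf and Elf3.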

How the data were processed

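Kidney RNA of 32 mice was measured in 8 groups of 4 by sex and day. The files as deposited hold unnormalized counts of 54532 genes, and FPKM values that the authors made by dividing each count by gene length and an effective library size. HTSeq and DESeq2 are named in the submitters' processing notes, and no aligner or strandedness is given in the sources used here. The labels list GRCm39 and the study's methods GRCm38, and the gene coordinates in the files are those of GRCm38.

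The members and lists were chosen with earlier results of these data known. Each comparison was fitted on its own groups by the robust quasi-likelihood test of edgeR 4.0.16 (R 4.3.3), after filterByExpr and TMM scaling, with Benjamini-Hochberg adjustment over all genes tested, and 95% intervals used the fit's degrees of freedom. CPM used TMM factors over the 32 libraries. In lists, up to 2 genes that passed with the largest change are named per comparison, and Sim1 at Day 3, Irx3 and, at Day 3 and Day 5, Itgb6 were added after their values were seen. On simulated counts 200, 197 and 144 of 200 genes changed by 2 on the log2 scale were called for the male Day 3, male Day 5 and Day 3 sex-difference comparisons among 15828, 15695 and 17046 genes. The simulated spread was the same for every gene and group, and the changed genes were well counted. Library totals were kept, without the loss of nuclear counts at Day 5, so these numbers do not give the power in these data. Alternatives were DESeq2 1.42.0, its size factors, other count filters, 1 fit of 8 groups, a replicate block, no mitochondrial genes, limma 3.58.1 voom weights, fold thresholds, FPKM in place of CPM and each mouse left out. The mouse numbers were not taken to pair the samples, since in no comparison did all 4 same-numbered pairs correlate above 0.1, although pairs 1, 3 and 4 of the Day 0 sexes did (r = 0.27, 0.44 and 0.48). The library totals were 16502107 to 35961325 counts, and p-values measure the spread between mice. Results for 1 proximal tubule factor are not reported here.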

Additional observations from a re-analysis of the deposited data

Results flagged for a closer look

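Of 64 sets of 4 mice, 1 for each gene and group, 2 held a mouse far from the other 3 by Dixon's criterion, which chance gives in about 1 of 20 sets. Sox9 had 3.61 CPM in female Day 5 mouse 2 and 1.46 to 1.73 CPM in the other 3, on 30 to 49 counts per library, and the mouse's mitochondrial share was 77.9%. Mecom had 37.0 CPM in male Day 2 mouse 3 and 28.3 to 28.5 CPM in the others. Without that mouse the male Day 2 change of Mecom was 0.59 and did not pass (adjusted p = 0.149 in edgeR).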

How the results depend on the processing

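Over the 8 genes and all comparisons, 1645 of the alternative values kept their direction and their side of the threshold, 77 passed where the reported value did not, 36 no longer passed, 68 changed sign and 4 untested values moved by more than 1 SD. Counts of members that passed moved as follows, and the cause was not tested. limma voom with sample quality weights gave 5 at male Day 2 and 5 at male Day 5, 5, 4 and 1 in females at Day 2, Day 3 and Day 5, 1, 3, 7 and 4 between the sexes on the successive days from Day 0, and 1, 1 and 3 for the difference between the sexes in the change. One fit over all groups gave 4, 3 and 2 in females at Day 2, Day 3 and Day 5, and 1 both between the sexes and for the difference in the change at Day 5. The DESeq2 Wald test gave 1 and 3 in females at Day 2 and Day 3, DESeq2 size factors 0 in females at Day 3, no filter on low counts 1 at Day 2 in males and 1 in females, and at least 10 counts in every library 3 in females at Day 3. An absolute log2 fold change over 1.5 left 0 in every comparison, and over 1 it left 0, 1 and 0 at male Day 2, male Day 3 and female Day 3. Without 1 mouse at a time the counts were 0 to 3, 2 to 4 and 1 to 3 in males, 0 to 3, 0 to 3 and 0 to 1 in females, 0 to 0, 0 to 0, 0 to 3 and 0 to 1 between the sexes, and 0 to 0, 0 to 0 and 0 to 1 for the difference in the change.

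The mouse numbers were not taken to pair the samples, since same-numbered mice did not deviate together in every pair. Pairs 1, 3 and 4 of the Day 0 sexes did (r = 0.27, 0.44 and 0.48), and what these libraries share was not tested. With a replicate block the counts were 0, 1 and 0 at male Day 2, male Day 3 and female Day 3 and 2 between the sexes at Day 3. Under the block Ehf and Mecom at male Day 2 had adjusted p of 0.0931 and 0.11 (edgeR), Mecom and Pax2 at male Day 3 had 0.0588 and 0.0693, and Ehf at female Day 3 had 0.143. Hnf4a at male Day 5 then passed at -1.97 (adjusted p = 0.0445).

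The values that changed sign were differences that had not passed. In limma voom Pax8 was -0.0055 at male Day 2 and -0.061 at male Day 3, and Elf3 was -0.20 at male Day 3 and -0.33, -0.14 and -0.075 in females at Day 2, Day 3 and Day 5. Hnf4a between the sexes at Day 2 was 0.18 there and Sox9 -0.77, and Sox9 was -0.0024 in the DESeq2 Wald test, -0.013 without the filter and -0.17 with the block. For the difference between the sexes in the change, Sox9 at Day 2 was -0.14 with the block and -0.75 in voom, Ehf -0.25 and Mecom -0.19 at Day 2 in voom, and Ehf -0.10 and Mecom -0.089 at Day 3 in voom. Without 1 mouse at a time, values crossed 0 as follows. Male Day 2 against Day 0 gave -0.0068 to 0.31 for Pax8 and -0.42 to 0.035 for Elf3. Male Day 3 against Day 0 gave -0.057 to 0.24 for Pax8 and -0.070 to 0.25 for Elf3. Female Day 2 against Day 0 gave -0.16 to 0.18 for Elf3. Female Day 3 against Day 0 gave -0.092 to 0.22 for Elf3. Female Day 5 against Day 0 gave -0.12 to 0.27 for Hnf4a. Male against female at Day 0 gave -0.34 to 0.026 for Pax2, -0.051 to 0.55 for Pax8 and -0.082 to 0.84 for Sox4. Male against female at Day 2 gave -0.11 to 0.099 for Hnf4a and -0.62 to 0.25 for Sox9. Male against female at Day 3 gave -0.22 to 0.060 for Pax2. Male against female at Day 5 gave -0.34 to 0.17 for Sox4. The difference between the sexes in the change to Day 2 gave -0.31 to 0.74 for Sox9, -0.46 to 0.010 for Elf3 and -0.057 to 0.24 for Mecom. The difference between the sexes in the change to Day 3 gave -0.19 to 0.12 for Hnf4a, -0.10 to 0.26 for Pax2, -0.79 to 0.00067 for Sox9 and -0.19 to 0.16 for Elf3. The difference between the sexes in the change to Day 5 gave -0.45 to 0.17 for Pax8 and -0.94 to 0.0075 for Sox4.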
